A study of Mus musculus with 6 samples.

Results

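The enzymes that keep glutathione, thioredoxin and peroxide levels in check were followed in the adrenal gland of the mouse with and without chromogranin A (Chga), the acidic protein that fills the storage granules of chromaffin cells. Members were the probe sets with a single gene symbol for a glutathione transferase, glutathione peroxidase, peroxiredoxin, thioredoxin reductase, superoxide dismutase or glutamate-cysteine ligase subunit, together with Cat, Txn1, Txn2, Txnip, Gsr, Gss, Nqo1, Hmox1 and Hmox2. This gave 61 of 12422 probe sets and 44 of 8251 named genes, and each gene was represented by its probe set of highest mean over the 6 arrays. Adrenal RNA of 12-week-old male mice, 3 lacking Chga (knockout) and 3 wild type, was measured on 1 single-colour Affymetrix array each. The knockout line is given by the labels only as that of Mahapatra and colleagues, and the sources used here give neither genetic background nor the number of glands per sample. The comparison asked how transcripts of this enzyme system differ when the granule protein is missing.

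Glutathione is a tripeptide whose cysteine thiol reduces peroxides and is joined to reactive molecules by the glutathione transferases. Glutamate-cysteine ligase and glutathione synthetase make it, the peroxidases oxidise it, and glutathione reductase restores it with NADPH. Peroxiredoxins remove hydrogen peroxide in parallel and are recharged by thioredoxin and thioredoxin reductase. In the adrenal cortex, electrons that leak from the mitochondrial cytochrome P450 enzymes of steroid synthesis form superoxide, which the dismutases turn into hydrogen peroxide, and Prdx3 is known to remove that peroxide inside the mitochondria.

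The tissue markers and the labels were checked first. Chga read 1188, 858 and 951 in the knockouts (arrays 1, 2 and 3 in turn) against 46719, 30213 and 35306 in the wild types, so that the groups stood far apart as labelled. Values of single arrays are given in that order throughout. Cortex markers (7 of 8 listed were measured) summed to between 466333 and 532763 in knockout and between 437489 and 534782 in wild-type arrays. Medulla markers (4 of 6) summed to between 166345 and 180412 in knockout and between 138634 and 152162 in wild-type arrays. Among them only Chgb, the brightest, had groups that did not overlap (93585, 120199 and 98209 against 69305, 77123 and 76133). Th, Ddc and Pnmt had log2 changes of 0.12, 0.27 and -0.23, each with overlap. Whether the amount of medulla differed between the groups was not tested. Skeletal muscle markers (12 of 12) stood apart within the knockout group: their summed signal was 10114, 82612 and 41425 for knockouts 1 to 3 and between 10191 and 10702 on the wild-type arrays. Macrophage markers (9 of 10) summed to 17878, 33065 and 26363 for knockouts 1 to 3 and to between 15241 and 18859 in wild type. The Gapdh control's 3' signal over its 5' signal, a sign of RNA integrity, was 0.831, 1.30 and 1.29 for knockouts 1 to 3 and between 0.762 and 0.806 in wild type. For the actin control this ratio was 1.32, 1.69 and 1.72 for knockouts 1 to 3 and between 1.14 and 1.22 in wild type. On each control every knockout array thus lay above every wild-type array, so RNA integrity and genotype cannot be told apart. Summed markers of red cells (5 of 9) lay between 74776 and 110014 in knockout and between 83898 and 172914 in wild type, those of liver (7 of 8) between 16966 and 36197 and between 13635 and 35248, those of fat (6 of 8) between 32626 and 58655 and between 27705 and 51106, and those of kidney (6 of 6) between 900.3 and 1664 and between 1248 and 2167. Markers above the filter on dim signals, among them 7 of the 12 for muscle and 0 of the 6 for kidney, were tested, and none passed. Of the 12 muscle markers 4 had all 3 knockout values above wild type and 0 had all below. One of them, Myh1, left out by that filter, read 163, 10290.4 and 4516 in the knockouts against 115, 62.6 and 157 in the wild types. Acta1, with 565, 32131 and 13869 in the knockouts, made up much of the sum. Not all markers followed it: Ckm read 762, 553 and 651 against 763, 636 and 818. Myh2 read 36.3, 48.1 and 63.9 against 208, 139 and 30.3. For members whose values on knockout arrays 2 and 3 lay apart from wild type, the range of the log2 change with each array left out in turn is therefore given.

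No member gene passed the test between genotypes. In whole glands, a different number of cells of a type and a different amount of RNA per cell cannot be told apart. The test was limma on log2(signal + 16) across all 7453 probe sets above a filter on dim signals, with adjustment over all of them and a threshold of 0.05. Of the 44 member genes 39 were tested, and 0 rose and 0 fell, where 0.443% of all tested probe sets passed. At an unadjusted p under 0.05 there were 4 member genes, or 10.3% against 11.3% of all tested probe sets. Higher values were found in 3 of them and a lower one in 1, where 5.06% and 6.25% of all tested probe sets were higher and lower. The 3 knockout arrays all lay above or all below the 3 wild-type arrays in 3 member genes, or 7.69% against 16.4% of all tested probe sets. They were 2 higher and 1 lower, beside 7.55% and 8.83% of all tested probe sets. The members' median log2 change, knockout minus wild type, was 0.08, beside -0.01 over all tested probe sets, and 22 of 39 values were above 0 (56.4% against 48.9%). A log2 change over 0.5 in either direction was found in 4 members, or 10.3% against 13.4% of all tested probe sets.

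A value that misses the threshold does not show equal levels, so the width of each estimate matters. The 95% interval of the log2 change lay between -1 and 1, within a 2-fold change either way, in 35 of the 39 genes. The 4 exceptions were Gstk1, Gpx3, Hmox1 and Mgst1. The interval lay within 0.5 either way in 9 genes, among them Prdx2, Prdx3, Prdx4, Gpx4, Gstp1 and Txn1. With knockout array 1 left out, Gstm1 and Hmox1 passed, and of the 20 alternative fits this was the only one in which a member did. In that fit 141 of all 7453 tested probe sets passed, against 33 with all arrays.

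**Figure D1:**
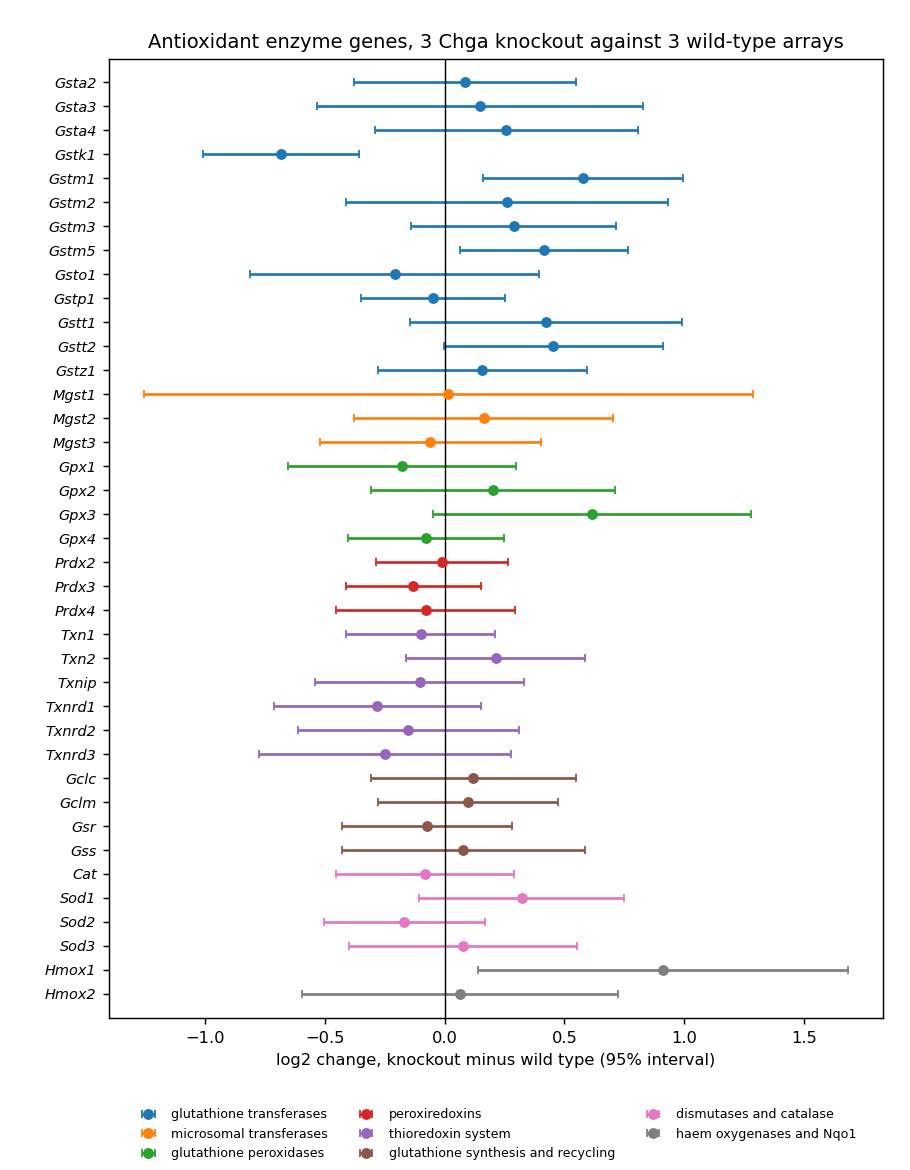
Log2 change, knockout minus wild type on the log2(signal + 16) scale, for the 39 tested member genes, with 95% intervals from limma; colours mark the enzyme families. Only the intervals of Gstk1, on the lower side, and of Gstm1, Gstm5 and Hmox1, on the higher side, leave out 0 before adjustment, and none passed after it.

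**Figure D2:**
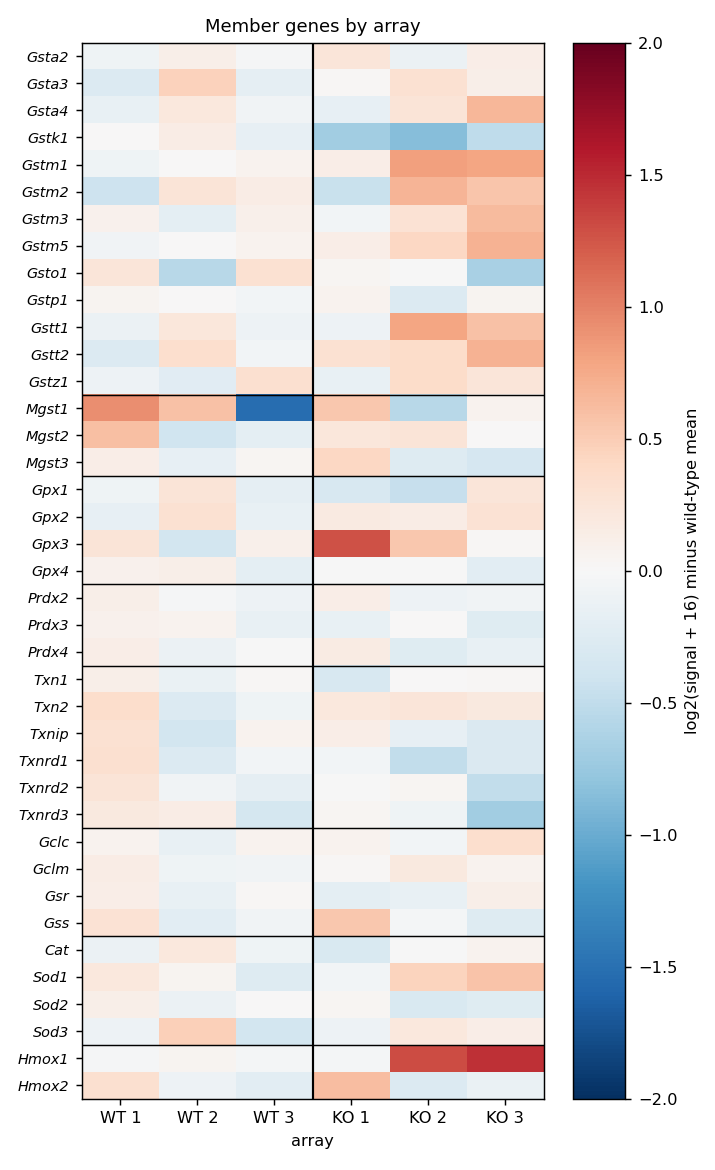
Log2(signal + 16) of each tested member gene (rows, grouped by enzyme family) on each array (columns), minus the mean of the 3 wild-type arrays (WT). The Gstk1 row is low on all 3 knockout arrays (KO), while the Hmox1, Gstm1 and Gstt1 rows are high on knockout arrays 2 and 3 and close to wild type on knockout array 1.

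The 4 genes that make and recycle glutathione gave no call, with log2 changes between -0.07 and 0.12. Gclc, the catalytic subunit of the rate-limiting ligase, read 1666, 1528 and 1992 in the knockouts against 1668, 1432 and 1653 in the wild types (log2 change 0.12, 95% interval -0.31 to 0.55). Gclm, the modifier subunit, had a mean of 2161 ± 138 against 2022 ± 184 in wild type (SD, n = 3 each), a log2 change of 0.10. The groups overlapped for both subunits. Glutathione synthetase, Gss, had a log2 change of 0.08 (95% interval -0.43 to 0.59) and glutathione reductase, Gsr, one of -0.07 (95% interval -0.43 to 0.28). Of these 4 genes, 0 passed and 0 had an unadjusted p under 0.05.

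Gstk1 had the smallest p of all members and lower values on every knockout array. It encodes the kappa-class transferase, which resides in mitochondria and peroxisomes. Its signal was 11062, 9957 and 12649 in the knockouts against 18117, 19987 and 15941 in the wild types. The highest knockout value thus lay below the lowest wild-type value. The means were 11223 ± 1353 and 18015 ± 2025 (SD, n = 3 each), 1.61-fold lower in knockout on the log2(signal + 16) scale (log2 change -0.68 ± 0.14 (SE), 95% interval -1.01 to -0.36). The unadjusted p was 0.00106, and the adjusted p of 0.128 did not pass. The summed muscle markers of knockout array 1 were near those of wild type, and the part of these markers in the Gstk1 values was not tested. With knockout array 1 alone against wild type the log2 change was -0.70. It lay between -0.77 and -0.60 over 20 alternative fits, in which adjusted p ran from 0.0860 to 1.0.

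The 250 bases before the transcription start are shown for Gstk1 and for Gstm1 and Gstm5, the genes whose groups did not overlap, 5′ to 3′ on the gene's strand. Capitals mark matches on either strand to the core of the antioxidant response element, TGACNNNGC, which binds the factor Nrf2 with a small Maf protein, or to the AP-1 site TGACTCA. The letters of the AP-1 site can also begin a match to the core element. Sequences and coordinates are RefSeq's for GRCm38.p6, while the array files name no genome build.
Gstk1, chr6:42245685-42245934, plus strand: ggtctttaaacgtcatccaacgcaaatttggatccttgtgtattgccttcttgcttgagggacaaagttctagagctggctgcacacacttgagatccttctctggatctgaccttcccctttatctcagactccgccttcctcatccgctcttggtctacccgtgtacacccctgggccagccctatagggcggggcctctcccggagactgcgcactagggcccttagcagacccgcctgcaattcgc
Gstm1, chr3:108017974-108018223, minus strand: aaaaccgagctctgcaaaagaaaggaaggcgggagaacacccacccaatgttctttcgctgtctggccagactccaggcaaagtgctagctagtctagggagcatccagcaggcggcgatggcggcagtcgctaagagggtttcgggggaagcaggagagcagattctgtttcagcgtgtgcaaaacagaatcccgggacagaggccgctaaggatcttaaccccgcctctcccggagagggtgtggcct
Gstm5, chr3:107895604-107895853, plus strand: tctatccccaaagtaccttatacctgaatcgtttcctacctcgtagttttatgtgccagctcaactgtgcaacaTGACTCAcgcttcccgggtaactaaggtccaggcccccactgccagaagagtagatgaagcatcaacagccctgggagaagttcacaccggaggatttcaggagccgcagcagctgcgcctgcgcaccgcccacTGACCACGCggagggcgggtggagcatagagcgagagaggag

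In these windows Gstm5 held 1 match to each motif, while Gstk1 and Gstm1 held neither. Gstm1 has another start downstream of the one shown, and its window, not shown, held neither as well. Of the 44 member genes 38 were matched to promoter entries, all but Gclc, Gsr, Gsta4, Gstt2, Hmox1 and Sod3. The core element was found in 6 of the 38 (Gclm, Gsta3, Gstm5, Mgst1, Sod1 and Txnrd1), or 15.8% against 11.5% of all 27025 genes in the table. The AP-1 site was found in 3 (Gstm5, Gstp1 and Mgst2), or 7.89% against 5.16% of all genes. Counted by window, the core element was in 12.0% of the members' 50 windows and in 10.2% of all windows. A match is a run of letters and not a shown binding site.

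None of the mu-class transferases, cytosolic enzymes encoded by neighbouring genes on chromosome 3, passed the test. Their 4 tested genes had mean log2 changes above 0, and each was higher on knockout arrays 2 and 3 than on knockout array 1. Those arrays also had the higher Gapdh 3' to 5' ratio. With this ratio as a covariate the log2 changes were 0.05 for Gstm1, 0.09 for Gstm5, -0.14 for Gstm3 and -0.55 for Gstm2. As the ratio of knockout array 1 was near wild type, that fit rests largely on this array. It cannot tell the ratio apart from other traits of knockout arrays 2 and 3. Gstm1 read 35691, 57336 and 56554 in the knockouts against 30731, 32886 and 34396 in the wild types. All 3 knockout values lay above wild type, the first of them only just. The log2 change was 0.58 ± 0.18 (SE), a 1.49-fold higher level (95% interval 0.16 to 0.99, adjusted p = 0.320). Without knockout array 1 it was 0.80 and passed (adjusted p = 0.0180), and with knockout array 1 alone it was 0.13, over a range of adjusted p from 0.0180 to 1.0 in 20 alternatives. With each array left out in turn it ran from 0.46 to 0.80. Gstm5 read 15338, 18663 and 22490 in the knockouts against 13324, 13966 and 14611 in the wild types, again without overlap (log2 change 0.41 ± 0.16 (SE), 1.33-fold, adjusted p = 0.397). With knockout array 1 alone its log2 change was 0.14, and with each array left out it was 0.28 to 0.55. The groups overlapped for Gstm3, with a log2 change of 0.29 (0.12 to 0.46 with each array left out), and for Gstm2, with 0.26 (0.05 to 0.61).

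Probe sets of the same mu-class gene did not give the same size of change. The values above for Gstm1, Gstm5 and Gstm3 came from probe sets whose name carries the manufacturer's mark for a gene family (f). Such probes may take up RNA of several of these related genes. The other tested probe sets gave log2 changes of 0.04 for Gstm1, -0.01 for Gstm3, 0.10 for Gstm2, and 0.17 and 1.10 for Gstm5. The last of these read 2178, 3055 and 1168 in the knockouts against 2062, 822 and 453 in the wild types, with overlap and an adjusted p of 0.475. Which mu-class gene carried the higher signal cannot be told apart by these probe sets.

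Theta-class genes showed a similar order of arrays. Gstt2 read 2984, 3090 and 3880 in the knockouts against 1974, 3021 and 2320 in the wild types. Only knockout array 1 lay within the wild-type range (log2 change 0.45 ± 0.20 (SE), 95% interval -0.00 to 0.91, adjusted p = 0.445), and with each array left out the change was 0.31 to 0.62. Gstt1, the other theta-class member, read 1546, 2888 and 2519 in the knockouts against 1536, 1945 and 1553 in the wild types. Its log2 change was 0.42 (adjusted p = 0.553), 0.24 to 0.69 with each array left out, and -0.11 with knockout array 1 alone.

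**Figure D3:**
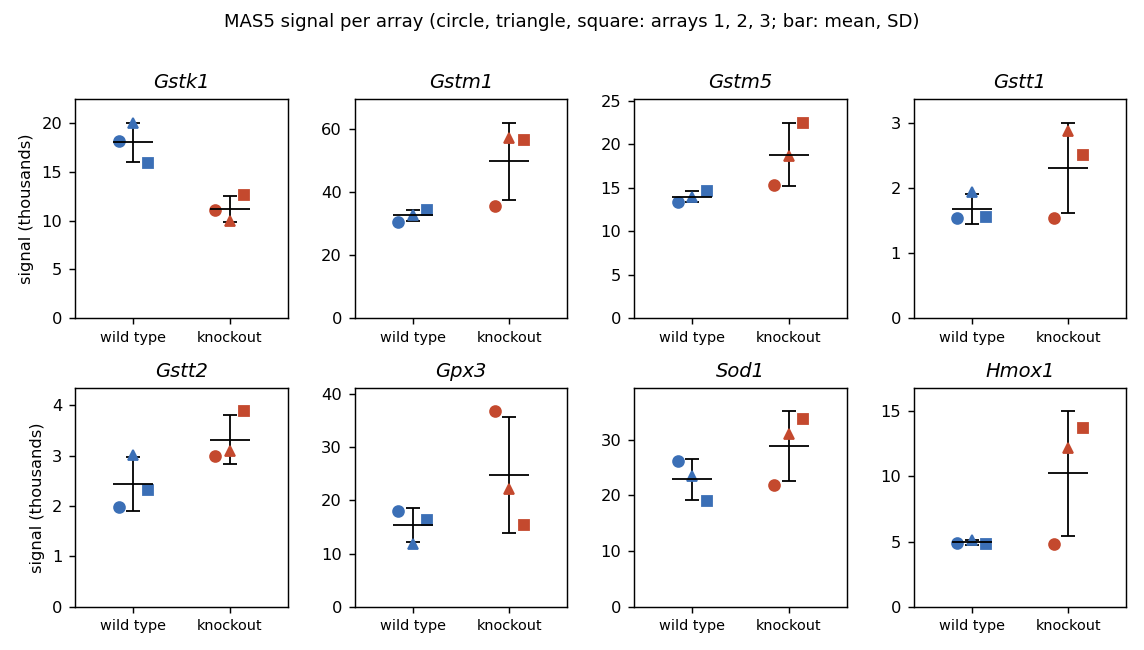
MAS5 signal on a linear axis for the 8 tested member genes of largest change, by genotype; each point is 1 array (circle, triangle and square for arrays 1, 2 and 3) and bars give mean and SD, with all axes starting at 0. The groups separate for Gstk1 (lower in knockout) and for Gstm1 and Gstm5 (higher), while Hmox1 is high only on knockout arrays 2 and 3 and Gpx3 is highest on knockout array 1.

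The remaining cytosolic transferases had overlapping groups. Gstp1, the pi-class enzyme, read 19109, 15030 and 18720 in the knockouts against 18740, 18139 and 17468 in the wild types (log2 change -0.05, 95% interval -0.35 to 0.25). The alpha-class genes Gsta2, Gsta3 and Gsta4, of which Gsta4 acts on products of lipid peroxidation, had log2 changes of 0.08, 0.15 and 0.26. Gsto1, the omega-class enzyme that can reduce dehydroascorbate, had -0.21, and Gstz1, which isomerises maleylacetoacetate in tyrosine breakdown, had 0.16. Over all 13 tested cytosolic and kappa-class transferase genes, 10 had values above 0, where 48.9% of all tested probe sets did, and the median was 0.26. An unadjusted p under 0.05 was found in 3 of the 13 (Gstk1, Gstm1 and Gstm5), where 11.3% of all tested probe sets had one. As the probe sets of Gstm1, Gstm3 and Gstm5 may take up RNA of several mu-class genes, these counts may not stand for separate genes. With knockout array 1 alone, Gsta4, Gstm2, Gstm3, Gstt1 and Gstz1 turned to values below 0, and Gsto1 and Gstp1 to values above it.

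Microsomal transferases are membrane proteins of a separate fold, and none of the 3 members separated the genotypes. Mgst1 read 25520, 11988 and 18428 in the knockouts against 33681, 26349 and 6135 in the wild types. The lowest and the highest value were both wild-type arrays. Its log2 change of 0.02 had the widest interval of all members (-1.25 to 1.29), and without wild-type array 3 it was -0.74 (adjusted p = 0.498, over a range from 0.498 to 1.0). Mgst2 had a log2 change of 0.16 and Mgst3 one of -0.06, and both groups overlapped.

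Among glutathione peroxidases, Gpx3 had the largest log2 change. It encodes the secreted selenoenzyme of plasma, and it read 36699, 22049 and 15393 in the knockouts against 18064, 11749 and 16312 in the wild types. Here knockout array 1 was the highest, and knockout array 3 lay within the wild-type range. The log2 change was 0.62 ± 0.29 (SE), with a 95% interval of -0.05 to 1.28 (adjusted p = 0.475), and it was 1.28 with knockout array 1 alone and 0.28 without it. Gpx4, which reduces lipid hydroperoxides within membranes, read 8715, 8638 and 7536 in the knockouts against 9240, 9493 and 7587 in the wild types (log2 change -0.08, 95% interval -0.40 to 0.25). Gpx1, the cytosolic and mitochondrial enzyme, had a log2 change of -0.18 and Gpx2, known from the gut epithelium, one of 0.20. None of the 4 tested peroxidase genes separated the genotypes.

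None of the 3 peroxiredoxin genes passed the test, and their groups overlapped. Prdx3, the mitochondrial peroxiredoxin, read 35596, 39622 and 33301 in the knockouts against 41717, 41519 and 35564 in the wild types (log2 change -0.13, 95% interval -0.41 to 0.15). Prdx2, a cytosolic form that red cells also hold in bulk, read 53499, 45244 and 46263 in the knockouts against 52940, 48058 and 45172 in the wild types. Its log2 change was -0.01, with knockout array 1 the highest of all 6 arrays. A dimmer probe set of Prdx2, singled out after its values were seen, gave 1721, 1334 and 1546 against 1106, 1205 and 915, all 3 knockout values higher (log2 change 0.51, adjusted p = 0.420). Prdx4, which works in the endoplasmic reticulum, had a log2 change of -0.08.

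In the thioredoxin system 5 of 6 genes had lower values in the knockout, none past the threshold and none with an unadjusted p under 0.05. The family's median log2 change was -0.13. Txnrd1, the cytosolic reductase, read 5383, 3966 and 4569 in the knockouts against 6992, 4649 and 5385 in the wild types (log2 change -0.28, 95% interval -0.71 to 0.15). The mitochondrial reductase Txnrd2 had a log2 change of -0.15 and Txnrd3, best known from testis, one of -0.25. Thioredoxin itself, Txn1, had a mean of 28809 ± 3693 against 30781 ± 2590 in wild type (SD, n = 3 each), a log2 change of -0.10. Its mitochondrial form Txn2 was the family's exception, with 17915 ± 325 against 15714 ± 3580 (SD, n = 3 each) and a log2 change of 0.21. Txnip, which binds thioredoxin and blocks it, had -0.10.

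Superoxide dismutases and catalase gave no call. Sod1, the copper and zinc enzyme of the cytosol, read 21821, 30968 and 33797 in the knockouts against 26236, 23466 and 19024 in the wild types. Knockout arrays 2 and 3 lay above wild type and knockout array 1 within it (log2 change 0.32 ± 0.19 (SE), adjusted p = 0.551, 0.19 to 0.51 with each array left out, and -0.06 with knockout array 1 alone). Sod2, the manganese enzyme of mitochondria, had a log2 change of -0.17 and the extracellular Sod3 one of 0.08. Catalase, Cat, which breaks down hydrogen peroxide in peroxisomes, had -0.08 (95% interval -0.45 to 0.29). The name of this probe set also carries the family mark (f). A Cat probe set of lower signal, singled out after its values were seen, read 3647, 4307 and 3862 in the knockouts against 5325, 4445 and 4616 in the wild types, all lower in knockout (log2 change -0.28, adjusted p = 0.508).

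Hmox1 had the largest log2 change of all members, and it came from 2 of the 3 knockout arrays. The gene encodes the inducible haem oxygenase, which macrophages use to recycle red cell haem and which many cells induce under oxidative stress. It read 4787, 12190 and 13669 in the knockouts against 4856, 5134 and 4808 in the wild types. Knockout array 1 lay just below the wild-type range and the others far above it. The log2 change was 0.91 ± 0.34 (SE), a 1.88-fold higher level (95% interval 0.14 to 1.68), and did not pass (adjusted p = 0.397). Without knockout array 1 it was 1.39 and passed (adjusted p = 0.00324), and with knockout array 1 alone it was -0.04, over a range of adjusted p from 0.00324 to 1.0 in 20 alternatives. With each array left out in turn it ran from 0.63 to 1.39. Hmox2, the constitutive form, had a log2 change of 0.07.

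The arrays with high Hmox1 were those with high summed muscle and macrophage markers. Skeletal muscle markers summed to 82612 and 41425 on knockout arrays 2 and 3, and macrophage markers to 33065 and 26363. On knockout array 1 the sums were 10114 and 17878. Of the macrophage markers, C1qa, C1qb, C1qc, Cd68 and Lyz2 were above wild type on knockout arrays 2 and 3 only. Csf1r (2543, 3407 and 2863 against 2044, 1315 and 1369) was higher on knockout array 1 too. Mpeg1 was highest on knockout array 1, and Mrc1 and Adgre1 did not follow the sum. With the Gapdh 3' to 5' ratio as a covariate the log2 change of Hmox1 was -0.19. That ratio was 1.30 and 1.29 on knockout arrays 2 and 3 and 0.831, near wild type, on knockout array 1. The fit with it thus rests largely on knockout array 1. It cannot tell the ratio apart from the muscle and macrophage markers. The part of the muscle and macrophage markers in these values was not tested. As a description of the whole family, 11 of 39 member genes had knockout arrays 2 and 3 both beyond the wild-type range on one side and knockout array 1 not, or 28.2% against 18.6% of all tested probe sets. Counted by probe set, as for the 18.6%, the form was found in 11 of 48 member probe sets, or 22.9%. These counts were chosen after the values were seen. In 7 members these arrays were above wild type (Gsta4, Gstm2, Gstm3, Gstt1, Gstt2, Hmox1 and Sod1), where 8.63% of all tested probe sets had that form. In 4 members they were below (Mgst3, Prdx4, Sod2 and Txnrd1), where 9.94% of all had it. With each array left out the log2 change was 0.05 to 0.47 for Gsta4, -0.41 to -0.12 for Txnrd1 and -0.27 to -0.10 for Sod2, while it crossed 0 for Mgst3 (-0.30 to 0.08) and for Prdx4 (-0.20 to 0.0030).

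**Figure D4:**
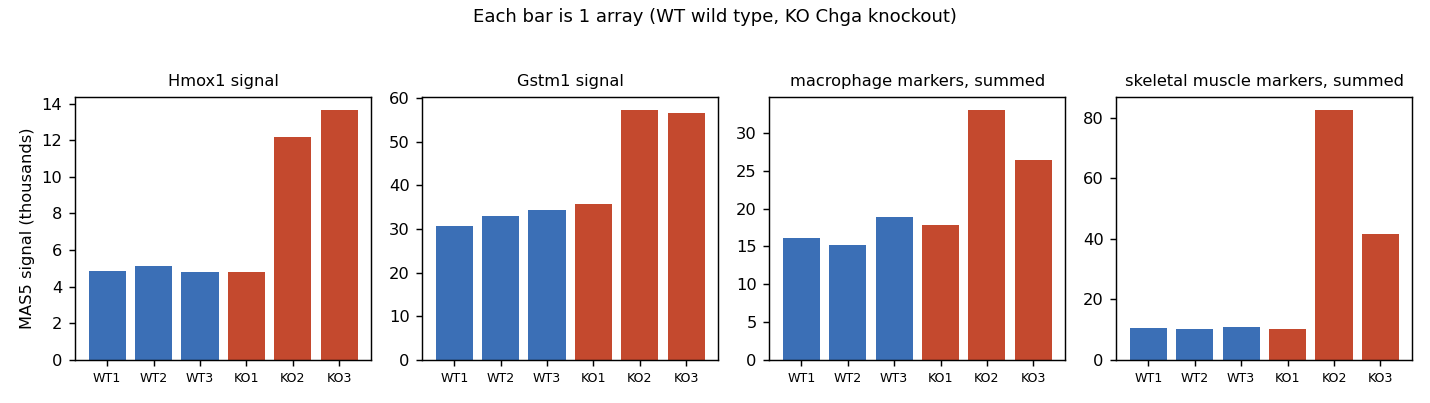
MAS5 signal on a linear axis of Hmox1, Gstm1, the summed macrophage markers and the summed skeletal muscle markers on each array (WT wild type, KO Chga knockout; arrays 1 to 3 of each). All 4 are highest on knockout arrays 2 and 3; Hmox1 reads 12190 and 13669 there and 4787 on knockout array 1.

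The 5 member genes left out by the filter on dim signals had overlapping groups. Nqo1, the quinone reductase that serves as a standard Nrf2 target, read 170, 201 and 394 in the knockouts against 403, 261 and 273 in the wild types. Gpx7, a peroxidase of the endoplasmic reticulum, read 549, 419 and 343 against 526, 168 and 605. Gpx5, known from the epididymis, read 449, 364 and 586 against 317, 705 and 482. Gsta1 read 30.4, 49.3 and 91.9 against 55.3, 58.7 and 45.2, and Gstm6 read 361, 198 and 139 against 288, 129 and 264. No detection calls were used here, so whether these signals stood above background is not known.

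Genes that surround this enzyme system gave no call either. Of 74 listed genes for its control, cysteine supply, NADPH supply, repair and metal binding, 53 were measured and 44 tested. Of these 0 passed, 8 had an unadjusted p under 0.05 (18.2% against 11.3% of all tested probe sets), 4 higher and 4 lower, and 6 had groups that did not overlap (13.6% against 16.4%). The median log2 change was 0.03. Nfe2l2, which encodes Nrf2, the main activator of antioxidant genes, had a mean of 9675 ± 1956 against 9284 ± 268 in wild type (SD, n = 3 each), a log2 change of 0.04 (95% interval -0.32 to 0.41). Mafk, one of its small Maf partners, read 3564, 3422 and 3813 in the knockouts against 2870, 1966 and 2609 in the wild types. All 3 knockout values were higher (log2 change 0.55, adjusted p = 0.346, and 0.54 with knockout array 1 alone). Sqstm1, the autophagy adaptor that binds the Nrf2 inhibitor Keap1, read 22773, 26301 and 24273 against 20359, 19115 and 19421, also without overlap (log2 change 0.31, adjusted p = 0.390).

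The group listed under NADPH supply had the lowest median log2 change of the list, -0.28. A value above 0 was found in 1 of its 7 tested genes, where 48.9% of all tested probe sets had one. The group also holds Taldo1 and Tkt, pentose phosphate enzymes that do not themselves form NADPH. Idh1, the cytosolic isocitrate dehydrogenase, read 16685, 16690 and 15754 in the knockouts against 25699, 21140 and 20486 in the wild types. Every knockout value lay below every wild-type value (log2 change -0.45 ± 0.13 (SE), 1.36-fold lower, 95% interval -0.74 to -0.15, adjusted p = 0.270). Taldo1, the transaldolase of the pentose phosphate pathway, read 13330, 11983 and 11859 against 16425, 15844 and 15166, likewise without overlap (log2 change -0.35, adjusted p = 0.359). With knockout array 1 alone the log2 changes of Idh1 and Taldo1 were -0.42 and -0.25. The groups overlapped for transketolase, Tkt (log2 change -0.64, adjusted p = 0.418), for Pgd (-0.28) and for Nnt (-0.24, and -0.03 without knockout array 1). Me1 had -0.04, and Idh2, the mitochondrial isocitrate dehydrogenase, 0.08.

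**Figure D5:**
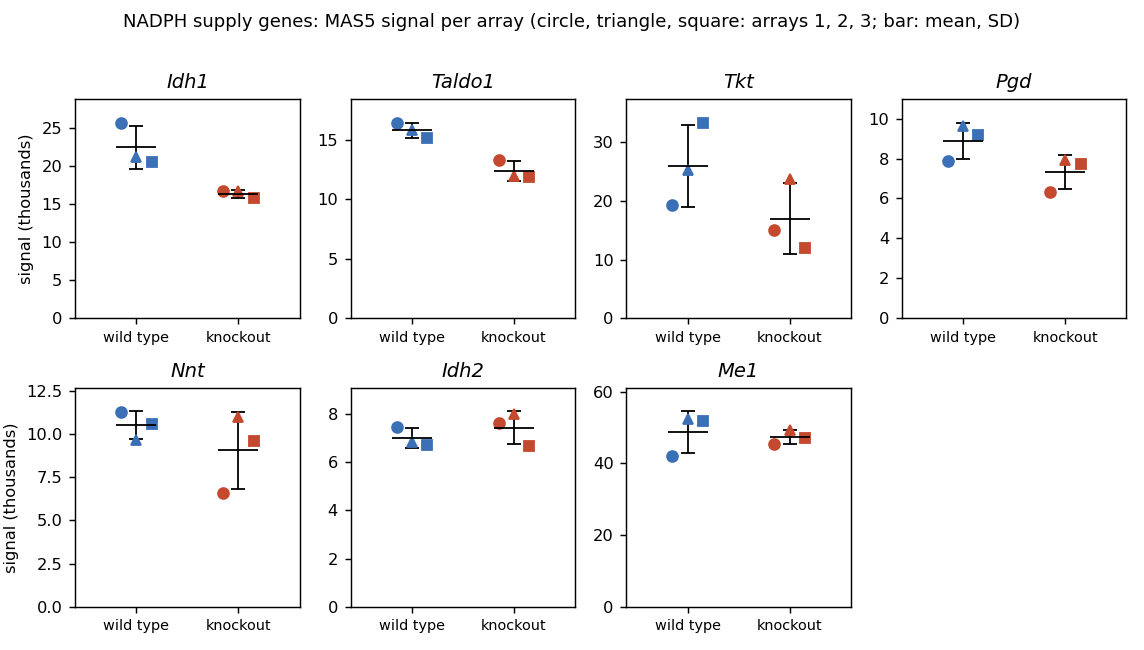
MAS5 signal on a linear axis of the 7 tested genes listed under NADPH supply by genotype. Of these, Taldo1 and Tkt do not themselves form NADPH. Each point is 1 array (circle, triangle and square for arrays 1, 2 and 3) and bars give mean and SD, with axes starting at 0. Idh1 and Taldo1 are lower on all 3 knockout arrays, and the other genes overlap.

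Of the other genes on that list, Xdh, the xanthine dehydrogenase gene whose product can release superoxide, read 4615, 4455 and 4125 in the knockouts against 7300, 5121 and 6073 in the wild types. The groups did not overlap (log2 change -0.47, adjusted p = 0.379). Nxn, which encodes the thioredoxin relative nucleoredoxin, read 737, 950.3 and 974 against 287, 766 and 260, with overlap (log2 change 1.15, 95% interval 0.17 to 2.13, adjusted p = 0.398). Slc3a2, the heavy chain of the cystine transporter, singled out after its values were seen, had a log2 change of 0.37 without overlap (adjusted p = 0.402).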

How the data were processed

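RNA of mouse adrenal glands was hybridised to 1 single-colour array per sample. The authors deposited 1 linear MAS5 intensity for each probe set. MAS5 is named in the submitters' processing notes, and the sources used here give neither its version nor its scaling target. Their mean after removing the highest and lowest 2% was close to 2501 on all 6 arrays, so no further scaling was applied. Groups were taken from sample titles. Where nothing says that samples are separate animals beyond the stated 3 per group, p-values measure only the spread between these samples, and the number of arrays limits the precision.

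Of 12488 probe sets, 66 controls were left out. Of the rest, 10833 carried a single symbol in GEO's platform annotation, 396 carried more than 1 and 1193 were unnamed here. Symbols of members are the platform's, and all match the RefSeq gene table through the Entrez identifier. Values were transformed to log2(signal + 16), and probe sets with a mean under the 40th percentile (a signal of about 582) were dropped, leaving 7453. limma 3.58.1 in R 4.3.3 (lmFit, eBayes with trend, two-sided) compared the groups, with Benjamini-Hochberg adjustment over all 7453. Every adjusted p is from this test, or from the alternative fit named beside it. The code of the test was tested on simulated data. Every fold change is taken on this scale and so understates the change of a dim gene. Unadjusted p refers to the same fit.

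Given array by array are members past the threshold, with groups that do not overlap, among the 8 smallest p or 8 largest changes, with tested probe sets over 1 apart (log2), or dim; other members are given in their family. Members, lists and tests were chosen with earlier results of these data known. From the surrounding list, the 6 of smallest p were named; Slc3a2, Nfe2l2, the NADPH genes and the extra probe sets of Prdx2 and Cat were chosen after their values were seen. Motifs were searched in the 250 bases before each RefSeq start.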

Additional observations from a re-analysis of the deposited data

How the results depend on the processing

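The count of probe sets past the threshold moved from 33 to 17 without the trend in eBayes, 12 with the Gapdh 3' to 5' ratio as a covariate, 13 with knockout array 1 alone against wild type, and 15 to 141 when each array was left out in turn (141 without knockout array 1, 15 without knockout array 3, 17 without wild-type array 2, 21 without wild-type array 3). The count of members past it was 0 to 2 when each array was left out, with Gstm1 and Hmox1 passing without knockout array 1, and 0 otherwise. The members' median log2 change of 0.08 was 0.041 with no filter, 0.016 with the filter at the 60th percentile, 0.036 with knockout array 1 alone, -0.078 with the ratio and the replicate block together, and -0.039 to 0.053 when each array was left out. The count of members with groups that do not overlap, 3 of 39 with all arrays, was 4 to 14 with 1 array fewer. It was 18 with knockout array 1 alone, and 5 of 48 (10.4%) over all member probe sets. Among all tested probe sets the share was 16.4% with all arrays, 23.4% to 35.0% with 1 array fewer and 49.6% with knockout array 1 alone. Fewer arrays overlap less by construction. The surrounding list's median of 0.03 was -0.072 with the ratio and the block. Replicate numbers did not pair the arrays (correlations of deviations 0.26, -0.04 and -0.04 for numbers 1 to 3, and only the arrays numbered 1 correlated best with each other). With the replicate block 57 probe sets and 0 members passed. For the moves not set by construction the cause was not tested. A lone knockout array was assumed to vary like the wild-type arrays.

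Of 1035 values of single genes under these alternatives, 954 kept direction and side of the threshold. Log2 changes turned sign with knockout array 1 alone for Gsta4 -0.16, Gstm2 -0.45, Gstm3 -0.060, Gsto1 0.039, Gstp1 0.078, Gstt1 -0.11, Gstz1 -0.15, Hmox1 -0.043, Mgst3 0.42, Prdx2 0.14, Prdx4 0.16, Sod1 -0.058, Sod2 0.039, Sod3 -0.10, Txnip 0.14, Txnrd3 0.036, Nfe2l2 -0.0046. With the ratio as a covariate they did so for Gpx4 0.028, Gsta4 -0.19, Gstm2 -0.55, Gstm3 -0.14, Gstp1 0.11, Gstt1 -0.17, Gstz1 -0.25, Hmox1 -0.19, Mgst3 0.48, Prdx2 0.17, Prdx4 0.19, Sod1 -0.10, Sod2 0.061, Sod3 -0.067, Txnip 0.13, Txnrd2 0.0048, Txnrd3 0.10, Nfe2l2 -0.0071. With the ratio and the replicate block they did so for Gclc -0.0021, Gclm -0.16, Gstm2 -0.078, Gstm3 -0.20, Gstp1 0.070, Gstt1 -0.034, Gstz1 -0.13, Hmox1 -0.12, Mgst1 -0.22, Mgst2 -0.48, Mgst3 0.31, Prdx2 0.029, Prdx4 0.048, Sod1 -0.30, Txn2 -0.21, Me1 0.13. Cyclic loess gave Mgst1 -0.0030 and median scaling Prdx2 0.011. With each array left out the ranges of log2 changes that crossed 0 were Cat -0.15 to 0.027, Gss -0.15 to 0.24, Gsto1 -0.48 to 0.012, Gstp1 -0.11 to 0.063, Hmox2 -0.21 to 0.24, Me1 -0.14 to 0.020, Mgst1 -0.74 to 0.48, Mgst2 -0.035 to 0.46, Mgst3 -0.30 to 0.082, Nfe2l2 -0.11 to 0.17, Prdx2 -0.088 to 0.049, Prdx4 -0.20 to 0.0030, Sod3 -0.11 to 0.32, Txn1 -0.17 to 0.011, Txnip -0.29 to 0.046, Txnrd2 -0.25 to 0.017. With 3 arrays a group, 9 of 39 members had an interval within 0.5 either way, which limits what differences these arrays can show.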
